A study of Mus musculus with 12 samples.

Results

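Nucleotide excision repair removes bulky lesions that distort the DNA helix, such as those left by ultraviolet light and some oxidative products. Lesions are found either across the whole genome, by XPC and DDB2, or where RNA polymerase stalls on a transcribed strand, by CSB and CSA. The general transcription factor TFIIH then opens the helix, XPA verifies the damage, a nuclease cuts on each side and the gap is refilled. Neurons do not divide and rely on this pathway, and inherited loss of several of its genes causes neurological disease.

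The core genes of this pathway were examined as 10 of the 23282 gene rows counted in mouse brain. They were Xpc and Ddb2 (damage recognition), Ercc6 and Ercc8 (which encode CSB and CSA), Ercc2 and Ercc3 (which encode the TFIIH helicases XPD and XPB), Xpa, and the nuclease genes Ercc1, Ercc4 and Ercc5 (for ERCC1, XPF and XPG). They were taken by symbol, as a set chosen because Xpa and Ercc3 changed in R6/2 mice. Comparisons of genotype and age are therefore given for these 10 genes as a description without a test. Only the regional comparisons, which the stated reason for the choice does not name, are tested for them. The comparison in which Xpa and Ercc3 changed is not stated. All 10 passed the filter on low counts that left 14706 genes in the fit of all libraries.

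RNAseq was available for the striatum (STR) and cortex (CTX) of HD (R6/2) mice and of their normal WT littermates at 13 weeks (post-symptomatic) and 8 weeks (pre-symptomatic). R6/2 mice carry a fragment of the human HTT gene, under its own promoter, with an expanded CAG repeat in the first exon. The 12 libraries formed 8 groups, with 2 libraries in each HD group and 1 in each WT group, and no drug or other agent is named in the labels for any of them. The labels do not say whether libraries come from single or pooled mice, so that p-values measure only the spread between these libraries, and a WT group has no spread of its own.

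The libraries held 8814386 to 12091201 counts. The 10 genes had 30 to 507 counts in a library, and counting error alone came to 4.44% of the highest and 18.3% of the lowest of these values. The kit read transcripts at their 3′ ends, so that CPM (read counts scaled to library size) did not depend on gene length. Drd1, Ppp1r1b and Penk marked the striatum (at least 201, 353 and 219 CPM there and at most 59.8, 144 and 58.1 CPM in cortex), whereas Drd2 and Gpr6, also striatal markers, were at 0 counts in 9 and 10 of the 12 libraries. Striatal replicate 2 of the 8-week HD mice stood apart from replicate 1. Its striatal neuron markers summed to 2309 CPM against 7335, its oligodendrocyte markers to 21020 against 3414 and its thalamic markers to 789 against 41.1. Choroid plexus markers summed to 3011 CPM in cortical replicate 2 of the 13-week HD mice, against 67.9 in replicate 1. By Xist and Y-linked counts, replicate 1 of each HD group was male and replicate 2 female, both 13-week WT libraries were female and both 8-week WT libraries were male, so that age and sex cannot be told apart in WT mice. Comparisons of HD with WT mice were therefore not balanced for sex at either age.

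Xpa and Ercc4 were the members that differed between striatum and cortex, and the starts of these genes are shown for that reason, as RefSeq gives them in GRCm38.p6 from 250 bases before to 50 bases after the start. The Xpa stretch lies on the minus strand at chr4:46196262-46196561 and the Ercc4 stretch on the plus strand at chr16:13109486-13109785. Capitals mark a CCAAT box, which begins 238 bases before the start of Xpa and, on the opposite strand, 191 bases before that of Ercc4.
Xpa: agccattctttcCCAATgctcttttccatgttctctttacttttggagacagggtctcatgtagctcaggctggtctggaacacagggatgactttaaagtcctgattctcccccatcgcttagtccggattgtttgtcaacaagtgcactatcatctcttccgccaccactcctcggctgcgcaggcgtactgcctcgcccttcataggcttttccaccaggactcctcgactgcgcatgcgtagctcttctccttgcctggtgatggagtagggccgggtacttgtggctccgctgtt
Ercc4: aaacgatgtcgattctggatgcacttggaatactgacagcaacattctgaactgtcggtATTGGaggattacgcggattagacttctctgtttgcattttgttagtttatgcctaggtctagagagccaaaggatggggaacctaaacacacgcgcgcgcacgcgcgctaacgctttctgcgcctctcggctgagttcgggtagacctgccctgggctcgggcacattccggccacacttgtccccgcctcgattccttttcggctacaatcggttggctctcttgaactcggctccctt
Both strands were searched for the E-box CACGTG, the GC box GGGCGG, the CCAAT box CCAAT, the cyclic AMP element TGACGTCA, the TATA box TATAAA, the NRF1 core and the ETS core CCGGAAGT. A CCAAT box stood in 37.4% of the 32851 promoters of the same length and in 5 of the 7 member promoters held in the table (Xpa, Ercc2, Ercc4, Ercc5 and Ercc8). The GC box stood in 4 of the 7 (Ercc1, Ercc2, Ercc6 and Ercc8) and in 35.7% of all, and the E-box in 2 (Ercc6 and Ercc8) and in 7.15%. The NRF1 core stood in Ercc6 (0.971% of all) and the ETS core in Ercc1 (3.89%), and neither the cyclic AMP element (1.79%) nor the TATA box (13.6%) was found in a member promoter. Xpc, Ddb2 and Ercc3 were not among them.

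**Figure D1:**
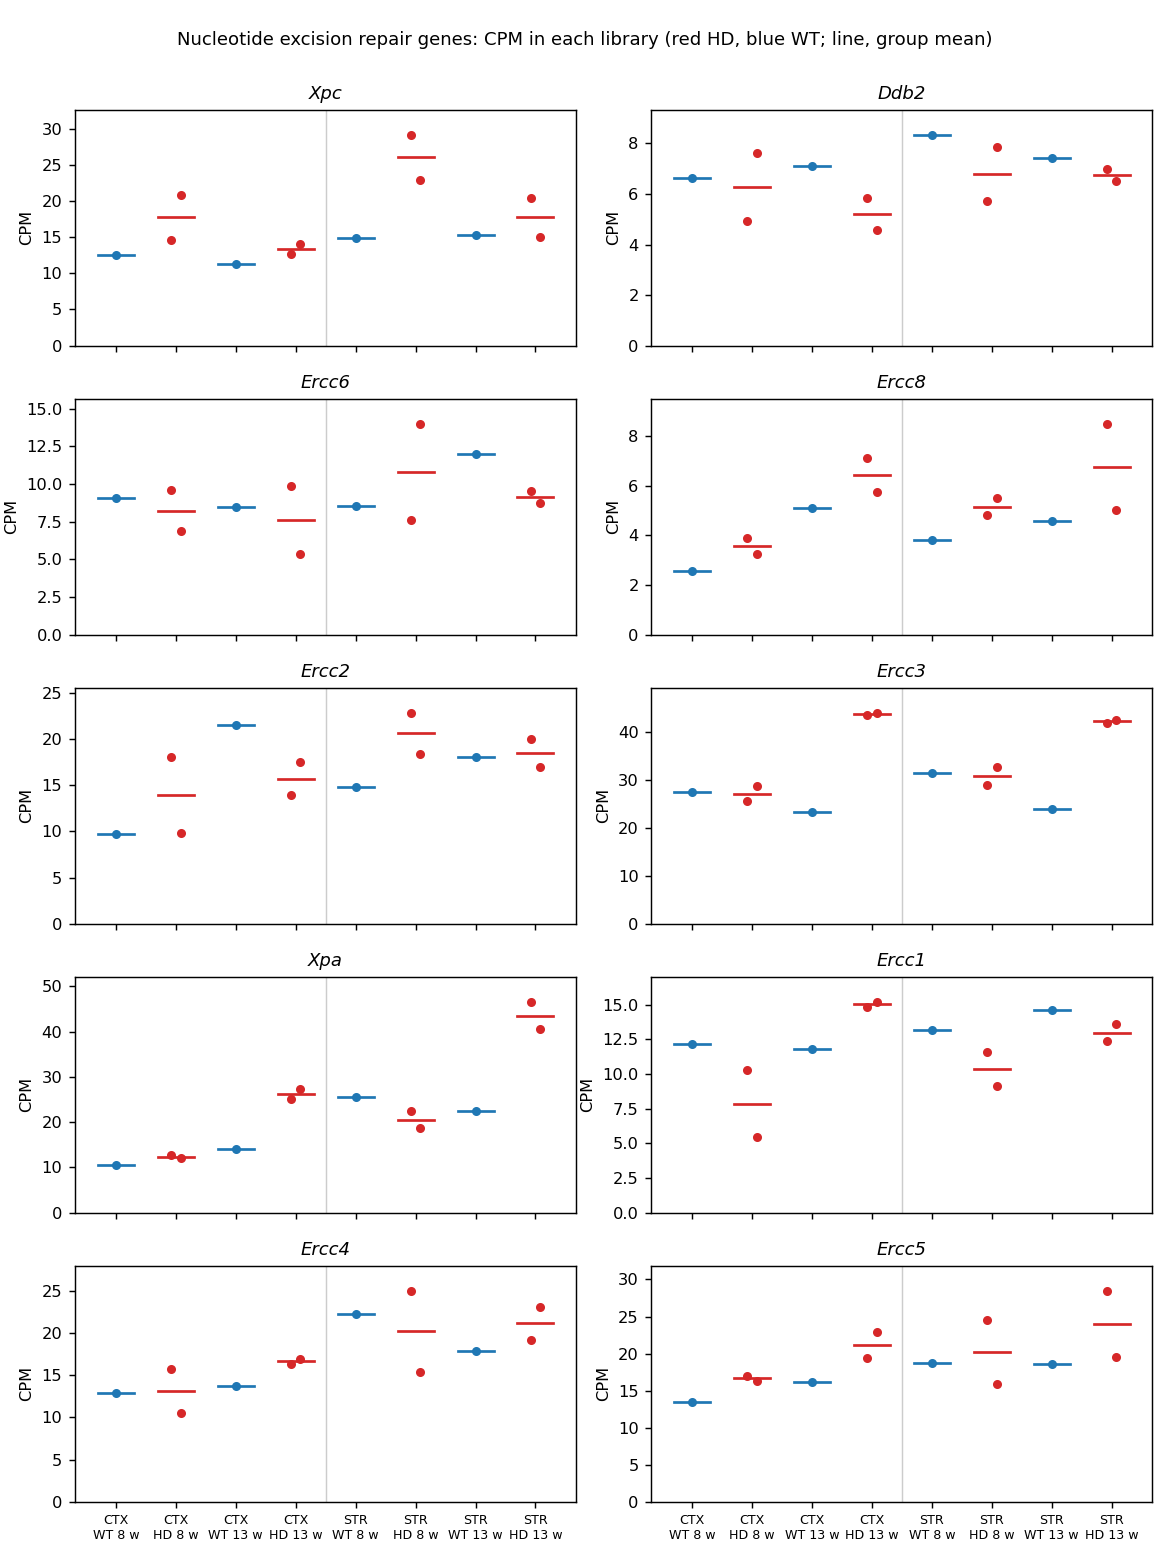
Expression of the 10 repair genes in each of the 12 libraries, as CPM on an axis from 0 (points, libraries; lines, group means; red, HD; blue, WT; cortex left and striatum right, w for weeks). The highest Xpa levels were the 46.5 and 40.5 CPM of 13-week HD striatum, and the 4 13-week HD libraries held the highest Ercc3 levels, 42.0 to 44.1 CPM.

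Xpa encodes the protein that checks the lesion and holds the repair complex together. It lies on chromosome 4 (46155347 to 46196311, minus strand, GRCm38). Xpa was at 46.5 and 40.5 CPM in the striatum of 13-week HD mice and at 22.4 CPM in that of WT littermates. In cortex it was at 25.2 and 27.3 CPM in 13-week HD mice and at 14.0 CPM in WT mice. Both HD libraries thus lay above the WT library in both regions, and the log2 ratio of the group means was 0.96 for striatum and 0.91 for cortex. At 8 weeks, Xpa was at 22.4 and 18.6 CPM in HD striatum against 25.6 CPM in WT striatum. In 8-week cortex it was at 12.7 and 12.1 CPM in HD mice and at 10.6 CPM in WT mice. The HD libraries at 8 weeks therefore lay below the WT library in striatum and above it in cortex. Within the HD mice, every 13-week library exceeded every 8-week library of its region, with group means of 43.5 ± 4.23 against 20.5 ± 2.65 CPM in striatum and 26.2 ± 1.49 against 12.4 ± 0.425 CPM in cortex (SD, n = 2 each). Across both regions, the fitted log2 difference was 0.93 (SE 0.19) between 13-week HD and WT mice, -0.07 (SE 0.19) at 8 weeks, 1.10 (SE 0.14) between the HD ages and 0.08 (SE 0.21) between the WT ages. The order of the 8 group levels ran from 8-week WT cortex to 13-week HD striatum, and among neighbours in it the values overlapped for 8-week WT striatum and 13-week HD cortex.

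Ercc3 encodes the XPB subunit of TFIIH, whose ATPase is needed both to open DNA at a lesion and to start transcription. It lies on chromosome 18 (32240300 to 32270151, plus strand). Ercc3 was at 42.0 and 42.7 CPM in 13-week HD striatum and at 43.6 and 44.1 CPM in 13-week HD cortex. Its 13-week WT values were 23.9 CPM (striatum) and 23.4 CPM (cortex). Every 13-week HD library was above the other 8 libraries, an order whose share over all genes was not counted. Both 13-week HD libraries lay above the WT library in both regions, as for 21.4% of all genes. The log2 ratio of Ercc3 to WT was 0.82 for striatum and 0.91 for cortex. At 8 weeks the values were 29.1 and 32.7 CPM in HD striatum, 31.4 CPM in WT striatum, 25.6 and 28.7 CPM in HD cortex and 27.6 CPM in WT cortex. In both regions the 8-week WT value lay between the HD replicates on this TMM-scaled CPM. Over the alternative settings the fitted 8-week difference of Ercc3 between HD and WT mice ran from -0.16 to 0.04. Group means in HD mice were 42.4 ± 0.443 CPM at 13 weeks and 30.9 ± 2.60 CPM at 8 weeks in striatum, and 43.8 ± 0.355 and 27.1 ± 2.23 CPM in cortex (SD, n = 2 each). The fitted log2 differences were 0.87 (SE 0.15) between 13-week HD and WT mice, -0.03 (SE 0.15) at 8 weeks, 0.58 (SE 0.12) between the HD ages and -0.32 (SE 0.17) between the WT ages. In WT mice, Ercc3 was thus lower at 13 than at 8 weeks in both regions, with a log2 ratio of -0.39 for striatum and -0.24 for cortex. Ercc2 (chromosome 7, 19382010 to 19395694, plus strand), which encodes the other TFIIH helicase XPD, ranged from 9.69 to 22.8 CPM. Its log2 difference between 13-week HD and WT mice was -0.23 (SE 0.27), and that between the WT ages was 0.73 (SE 0.32).

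The sums of some cell type markers also differed in the comparisons in which Xpa and Ercc3 differed. In 13-week striatum, the markers of striatal projection neurons summed to 1386 to 1411 CPM in HD mice and to 7737 CPM in WT mice, and 4 of the 8 markers tested fell across both regions (edgeR, adjusted p under 0.05). Oligodendrocyte markers summed to 4368 to 7296 CPM in HD and 5229 CPM in WT striatum, astrocyte markers to 2319 to 2692 and 3135 CPM, and microglial markers to 392 to 460 and 482 CPM. In 13-week cortex, the markers of cortical excitatory neurons summed to 1265 to 1271 CPM in HD mice and to 2085 CPM in WT mice. There, oligodendrocyte markers summed to 2448 to 2763 CPM in HD and 4159 CPM in WT mice, and astrocyte markers to 2827 to 3043 and 3818 CPM. Across both regions, 0 of 9 cortical neuron, 0 of 8 oligodendrocyte and 0 of 7 astrocyte markers were called (edgeR, adjusted p under 0.05). The log2 differences of single markers in these lists ran from -1.76 to 0.66, -0.84 to 0.28 and -1.02 to 1.69. In the same fit, 1 of 8 microglial markers fell. Between the HD ages, the astrocyte sums were 5304 to 5314 CPM at 8 weeks and 2827 to 3043 CPM at 13 weeks in cortex, and 3870 to 3973 and 2319 to 2692 CPM in striatum. The sums of striatal neuron markers in HD striatum were 2309 to 7335 CPM at 8 weeks and 1386 to 1411 CPM at 13 weeks. Over both regions, 3 of 8 striatal neuron markers and 1 of 7 astrocyte markers fell between the HD ages (edgeR, adjusted p under 0.05). Of the cortical neuron, oligodendrocyte and microglial markers, 0 of 9, 0 of 8 and 0 of 8 were called there. Fewer cells of a type and less RNA per cell cannot be told apart in such tissue, and the part of cell types in the levels of Xpa and Ercc3 was not tested. The ribosomal RNA precursor, listed as Rn45s, took 10.5% to 15.2% of the counts in HD libraries and 4.32% to 5.62% in WT libraries. With Rn45s left out of the library totals, the log2 difference between 13-week HD and WT mice was 0.93 for Xpa and 0.86 for Ercc3. Among the female libraries at 13 weeks, Xpa was at 40.5 (HD) and 22.4 (WT) CPM in striatum and at 27.3 and 14.0 CPM in cortex. Ercc3 was at 42.7 (HD) and 23.9 (WT) CPM in striatum and at 44.1 and 23.4 CPM in cortex in these libraries.

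Of the damage recognition genes, Xpc had its highest levels in the striatum of 8-week HD mice. Xpc, which senses unpaired bases opposite a lesion, lies on chromosome 6 (91489305 to 91515888, minus strand). It was at 29.2 and 22.9 CPM in 8-week HD striatum against 14.9 CPM in WT striatum, and at 14.7 and 20.9 CPM in 8-week HD cortex against 12.6 CPM in WT cortex. At 13 weeks it was at 20.4 and 15.1 CPM in HD striatum against 15.4 CPM in WT striatum, and at 12.6 and 14.1 CPM in HD cortex against 11.3 CPM in WT cortex. The HD libraries were thus above WT in both regions at 8 weeks, and at 13 weeks 1 of the 2 striatal HD libraries was not. The log2 difference between HD and WT mice was 0.65 (SE 0.22) at 8 weeks and 0.22 (SE 0.22) at 13 weeks, and that between the HD ages was -0.47 (SE 0.18). Ddb2 (chromosome 2, 91211572 to 91236982, minus strand), whose product binds ultraviolet lesions and passes them to XPC, lay between 4.59 and 8.34 CPM. All 4 of its 13-week HD values were below the WT value of their region, with a log2 difference of -0.29 (SE 0.28).

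The genes of transcription-coupled repair were among the low members of the set. Ercc6 (chromosome 14, 32513521 to 32580990, plus strand), which encodes the ATPase CSB that acts on stalled polymerase, lay between 5.39 and 14.0 CPM. The lowest value was that of 13-week HD cortical replicate 2 and the highest that of 8-week HD striatal replicate 2, both libraries with outlying markers. The log2 differences of Ercc6 ranged from -0.28 (SE 0.31) between 13-week HD and WT mice to 0.19 (SE 0.37) between the WT ages. Without 8-week HD striatal replicate 2, that between the HD ages went from -0.17 to 0.05. At 8 weeks, that between HD and WT mice went from 0.09 to -0.11. Ercc8 (chromosome 13, 108158731 to 108195364, plus strand), which encodes the ubiquitin ligase subunit CSA, lay between 2.55 and 8.48 CPM. In CPM, Ercc8 was above WT in both HD libraries of both regions at both ages, an order whose share over all genes was not counted. Its raw counts in HD against WT were 37 and 30 against 30 in 8-week cortex and 41 and 51 against 38 in 8-week striatum. They were 83 and 65 against 60 in 13-week cortex and 91 and 47 against 48 in 13-week striatum. Ercc8 had a log2 difference between HD and WT mice of 0.46 (SE 0.35) at 8 weeks and 0.44 (SE 0.34) at 13 weeks. Its difference between ages was also alike in size in the 2 genotypes, at 0.63 (SE 0.28) in HD and 0.63 (SE 0.39) in WT mice.

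Of the nuclease genes, Ercc4 (chromosome 16, 13109684 to 13150617, plus strand) encodes XPF, which cuts on the 5′ side of the lesion with ERCC1 as its partner. Ercc4 was at 19.2 and 23.1 CPM in 13-week HD striatum and 17.8 CPM in WT striatum, and at 16.3 and 17.0 CPM in 13-week HD cortex and 13.7 CPM in WT cortex. At 8 weeks it was at 25.0 and 15.4 CPM in HD striatum and 22.2 CPM in WT striatum, and at 15.7 and 10.6 CPM in HD cortex and 12.8 CPM in WT cortex. The 13-week HD libraries were thus above WT in both regions (log2 difference 0.26, SE 0.24), while the 8-week HD replicates lay on either side of the WT value. Ercc1 (chromosome 7, 19344778 to 19356524, plus strand) encodes that partner. It was at 11.6 and 9.15 CPM in 8-week HD striatum and 10.3 and 5.44 CPM in 8-week HD cortex, below the WT values of 13.2 and 12.2 CPM. Its log2 difference between HD and WT mice was -0.48 (SE 0.27) at 8 weeks and 0.10 (SE 0.27) at 13 weeks, and that between the HD ages was 0.64 (SE 0.24). Ercc5 (chromosome 1, 44147744 to 44181260, plus strand), which encodes XPG and cuts on the 3′ side, lay between 13.4 and 28.4 CPM. Its 13-week HD libraries were above WT in both regions, with a log2 difference of 0.38 (SE 0.22).

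**Figure D2:**
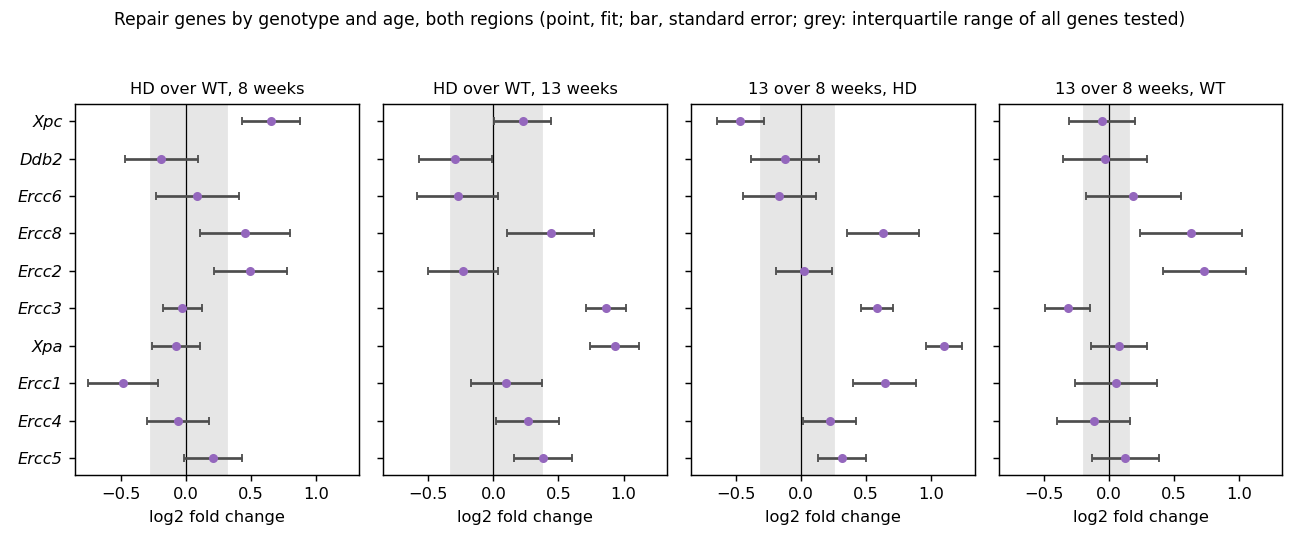
Fitted log2 fold changes of the 10 repair genes in 4 comparisons of genotype or age over both regions (point, fit; bar, standard error; grey band, interquartile range of all genes tested). At 13 weeks Xpa (0.93) and Ercc3 (0.87) lay to the right of the other 8 genes, and at 8 weeks they lay at -0.07 and -0.03.

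Set against all genes, the median log2 difference of the 10 members between 13-week HD and WT mice was 0.24, against 0.01 over all genes tested, and the 8 members other than Xpa and Ercc3 lay between -0.29 and 0.44. Both HD libraries were above the WT library in both regions for 5 members (Xpa, Ercc3, Ercc4, Ercc5 and Ercc8), as for 21.4% of all genes, and below it for 1 (Ddb2), as for 22.6%. At 8 weeks the same held upwards for 3 members (Xpc, Ercc2 and Ercc8), as for 15.4% of all genes, and downwards for 1 (Ercc1), as for 15.1%. Between the HD ages the median of the members was 0.26, against 0.00 over all genes. The values of the HD ages did not overlap in either region for Xpa, Ercc1 and Ercc3, which were higher at 13 weeks (as for 9.03% of all genes), and for Xpc, which was lower (11.0%). Since the members were chosen on R6/2 changes, these counts carry no weight as evidence. The 13-week HD libraries enter both the comparison with WT and that with the 8-week HD mice.

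The stated reason for the choice of genes, a change in R6/2 mice, does not name the regional comparison, although earlier results of these data were known. Xpa was expressed at a higher level in striatum than in cortex in every pair of genotype and age, by a log2 difference of 0.81 (SE 0.12, 1.75-fold, adjusted p = 0.000639, edgeR quasi-likelihood test over 14706 genes). The regional log2 ratio of Xpa was 0.73 in 13-week HD, 0.73 in 8-week HD, 0.68 in 13-week WT and 1.27 in 8-week WT mice. Ercc4 was also higher in striatum, by 0.51 (SE 0.16, 1.43-fold, adjusted p = 0.0401, edgeR), with ratios from 0.35 to 0.79 in the 4 pairs. Xpc missed the threshold at 0.43 (SE 0.15, adjusted p = 0.0522, edgeR), although its striatal libraries lay above the cortical ones in every pair. The other 7 members had log2 differences of 0.08 (Ercc3) to 0.32 (Ercc2), with edgeR adjusted p of 0.235 or more. Called higher were thus 2 of 10 members, where 8.51% of all genes tested were called higher in striatum and 12.1% lower. All 10 estimates were positive, with a median of 0.28 against 0.01 over all genes, of which 51.4% were positive. Every striatal library exceeded every cortical library of its genotype and age for Xpa and Xpc, as for 7.36% of all genes, and the reverse held for 0 members and 11.2% of all genes. The 8-week HD striatal replicate 2, whose markers stood apart, did not carry these values. Without it Xpa was at 0.85 (adjusted p = 0.000257, edgeR), Ercc4 at 0.58 (0.0146) and Xpc, then called, at 0.46 (0.0413). The call of Ercc4 was lost, with adjusted p up to 0.109 by edgeR, in 9 of 12 fits that left out 1 library, namely all except those without 13-week HD striatal replicate 1, 8-week HD cortical replicate 1 or 8-week HD striatal replicate 2. Beside these differences, 8 of 8 markers of striatal projection neurons were higher in striatum (median log2 difference 4.24) and the 8 oligodendrocyte markers had a median of 1.27 with 0 called by edgeR, 6 by DESeq2 and 7 at an unadjusted p under 0.05. Their part in the regional differences was not tested.

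**Figure D3:**
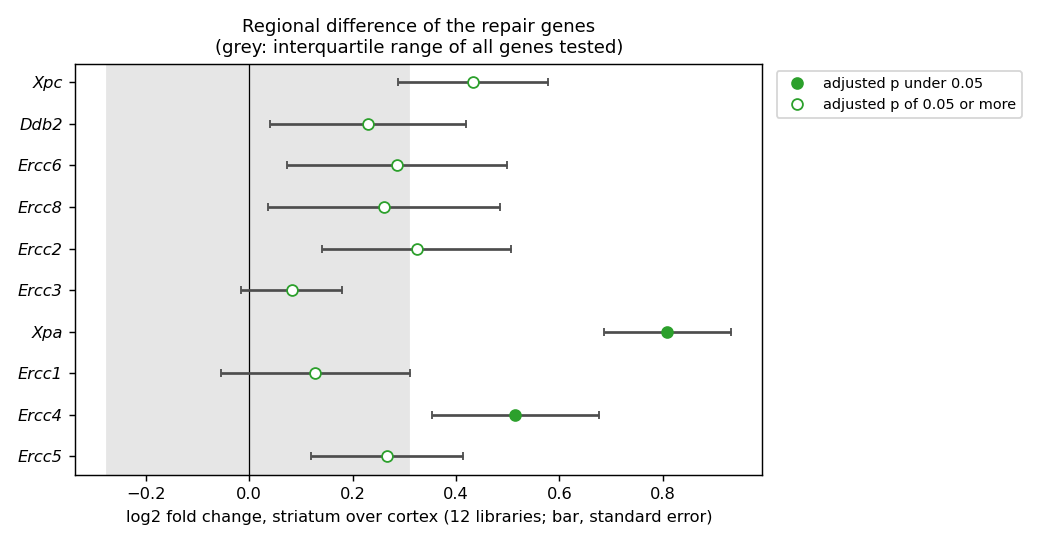
Fitted log2 fold change of each repair gene in striatum over cortex in 12 libraries (point, fit; bar, standard error; filled, adjusted p under 0.05 by edgeR; grey band, interquartile range of all genes tested). All 10 points are to the right of 0, and the filled points are Xpa (0.81) and Ercc4 (0.51).

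Whether the genotype or age difference depended on region was tested directly. If the genes were chosen on a change seen in 1 region, that choice enters these tests. For the difference between the HD and WT contrasts in striatum and in cortex, 0 members and 0.00% of all genes were called by edgeR, and DESeq2 also called 0 members. The interaction estimates of the members ran from -0.25 (SE 0.26) for Xpa to 0.22 (SE 0.39) for Ercc2, with 0 at an unadjusted p under 0.05. In the HD mice, the age difference in striatum minus that in cortex was 0.05 (SE 0.29) for Xpa and -0.19 (SE 0.25) for Ercc3, and again 0 members and 0.00% of all genes were called by edgeR and 0 members by DESeq2. The most negative of these was Ercc1, at -0.56 (SE 0.47), whose log2 ratio between the HD ages was 0.32 in striatum and 0.94 in cortex. With standard errors of 0.25 to 0.59, differences between the regions of the size of the age change itself could be missed for most members. The 0.00% over all genes also depended on the libraries held. With either striatal replicate of the 8-week HD mice left out, edgeR called some genes in both interactions, none of them members. Those replicates lay the furthest apart of any HD group, with chi-square over its degrees of freedom at 78.2 against 7.23 to 20.3. The 0.00% is therefore not evidence that the regions were alike.

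In the GENCODE M21 annotation, 4 members overlapped the 3′ end of a counted gene on the opposite strand, and the sources used here do not say whether the counting used strand. Reads at these ends could therefore belong to either gene. Xpa overlaps Ncbp1, which encodes a subunit of the nuclear cap-binding complex, by 17057 bases, through a long Xpa transcript. In the RefSeq gene table for mouse, the genes are 2816 bases apart. Ncbp1 had 1.11 to 3.50 times as many counts as Xpa. Like Xpa, Ncbp1 was higher in both 13-week HD libraries than in WT in both regions, at 51.7 and 53.5 against 42.6 CPM in striatum and 39.4 and 43.3 against 31.0 CPM in cortex. Its log2 difference was 0.36 (SE 0.20) between 13-week HD and WT mice and 0.16 (SE 0.16) between the HD ages, and in striatum over cortex it was 0.34 (SE 0.13, adjusted p = 0.0866, edgeR). Whether reads were shared between Xpa and Ncbp1 was not tested. Ercc1 overlaps Cd3eap, a subunit of RNA polymerase I, by 511 bases, and Cd3eap had 3.42 to 11.6 times as many counts. Ddb2 overlaps Acp2, a lysosomal acid phosphatase, by 2527 bases, and Acp2 had 8.87 to 21.5 times as many counts. Ercc2 overlaps Klc3, a kinesin light chain, by 1258 bases, and Klc3 had 11 to 39 counts against 90 to 254 for Ercc2.

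**Figure D4:**
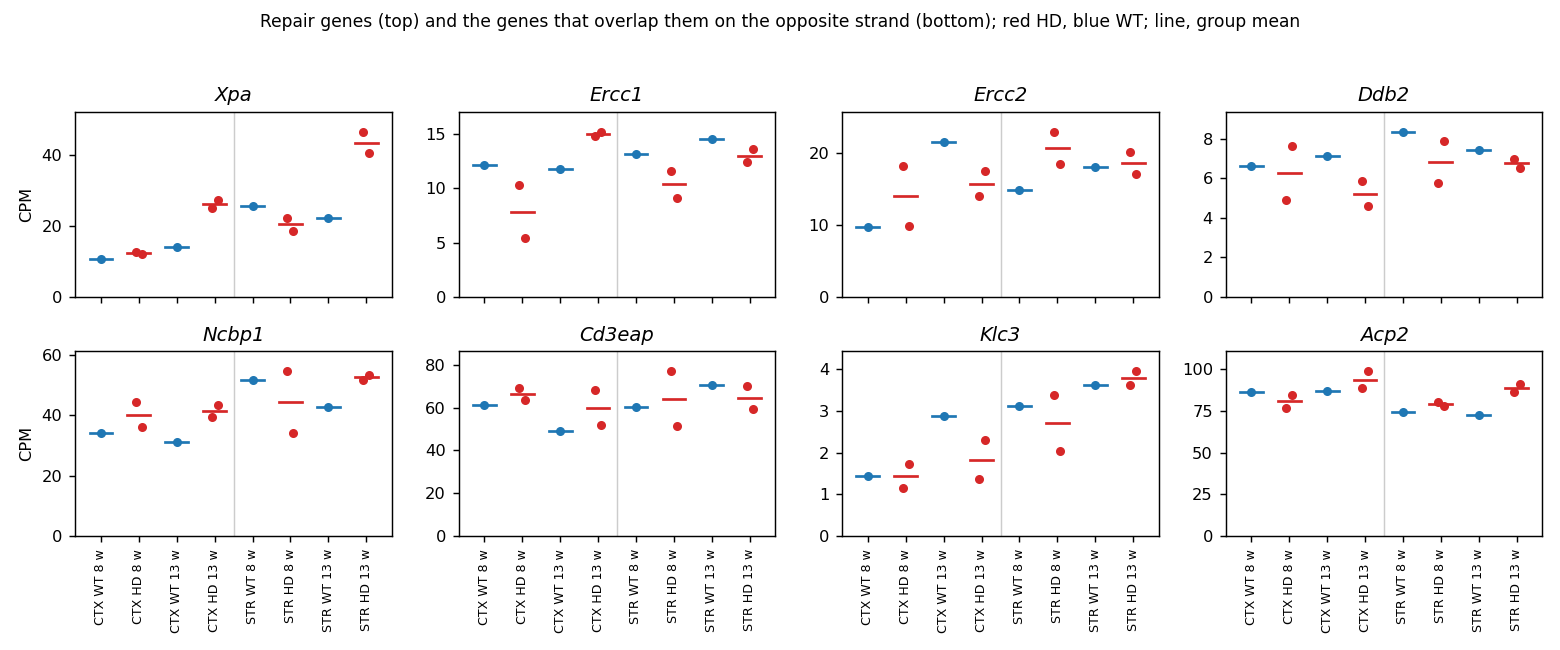
CPM in each library of the 4 repair genes with an overlapping neighbour (top) and of that neighbour (bottom), with group means as lines (red, HD; blue, WT; axes from 0). Ncbp1 had log2 differences of 0.36 and 0.16 where Xpa had 0.93 (13-week HD over WT) and 1.10 (13 over 8 weeks in HD).

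The wider pathway was followed in 43 further genes, of which 41 were tested. Between 13-week HD and WT mice, 3 rose and 1 fell (7.32% and 2.44% of those tested, against 3.10% and 4.26% of all genes). Comparisons with WT counted striatal and cortical libraries as separate, though the labels do not say whether they come from the same mice. If they do, the adjusted p-values are too small, and no replicate block was run for these comparisons. Cetn2, which encodes the centrin that stabilizes XPC, rose by 0.84 on the log2 scale (SE 0.14, adjusted p = 0.00579, edgeR). Its level was 72.5 to 85.9 CPM in 13-week HD and 42.2 to 45.8 CPM in 13-week WT libraries. Mnat1, a subunit of the TFIIH kinase, rose by 0.67 (SE 0.18, adjusted p = 0.0432, edgeR). Of the clamp loader genes, Rfc1 rose by 0.71 (SE 0.17, adjusted p = 0.0255, edgeR) and Rfc5 fell by 1.36 (SE 0.26, adjusted p = 0.0101, edgeR). Rfc5 was at 4.33 to 5.78 CPM in 13-week HD libraries and at 11.4 to 14.7 CPM in 13-week WT libraries, without overlap. None of these 4 calls was kept when the striatal or the cortical 13-week WT library was left out (edgeR adjusted p up to 0.335). Mnat1 was also lost without any of the 4 13-week HD libraries or 8-week HD cortical replicate 2, and Rfc1 without replicate 1 of either 13-week HD group. At 8 weeks, 2 of the 41 were higher in HD mice and 0 lower (1.95% and 0.150% of all genes), again Cetn2 (0.64, SE 0.14, adjusted p = 0.0390, edgeR) and Rfc1 (0.74, SE 0.17, adjusted p = 0.0448, edgeR). Cetn2 was called in 1 and Rfc1 in 3 of 12 fits that left out 1 library, and neither when counts were scaled by library totals only. Other core TFIIH genes and the genes for RPA, the protein that coats single-stranded DNA, were not called between genotypes at either age.

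Between the HD ages, Cul4a, the scaffold of the ligase that holds DDB2 and CSA, rose by 0.63 (SE 0.13, adjusted p = 0.0238, edgeR), and Uvssa, which recruits TFIIH to stalled polymerase, fell by 0.92 (SE 0.20, adjusted p = 0.0261, edgeR). Each was 1 of 41, or 2.44%, against 1.93% and 4.53% of all genes. Both calls were lost without either cortical replicate of either age, or without 13-week striatal replicate 2, and that of Cul4a also without 13-week striatal replicate 1. In those fits the edgeR adjusted p reached 0.0966 for Cul4a and 0.101 for Uvssa. In striatum over cortex, 5 of the 41 were higher and 2 lower (12.2% and 4.88%, against 8.51% and 12.1% of all genes), and the median of the list was 0.07. Hmgn1, a nucleosome-binding protein linked to transcription-coupled repair, was higher in striatum by 1.0 (SE 0.15, adjusted p = 0.000535, edgeR). The ligase gene Lig3 (0.80, SE 0.16), the RPA subunit Rpa2 (0.58, SE 0.11), the polymerase subunit Pold2 (0.61, SE 0.20) and Uvssa (0.50, SE 0.16) were also higher. Rad23b, the partner of XPC, was lower by 0.37 (SE 0.09, adjusted p = 0.0133, edgeR), and the small TFIIH subunit gene Gtf2h5 was lower by 0.34 (SE 0.09, adjusted p = 0.0179, edgeR). Hmgn1, Lig3, Rpa2 and Rad23b kept their calls with any library left out, Gtf2h5 in 7 of 12 such fits, and Pold2 and Uvssa in 2 of 12 each. With each replicate of a genotype and age as a block, the calls of Pold2 and Uvssa were also lost (adjusted p = 0.0590 and 0.0579, edgeR). Both interactions of region, with genotype and with the age of HD mice, had 0 of 41 called by edgeR and by DESeq2. At an unadjusted p under 0.05 (edgeR) stood 6 and 2 of the 41, against 1234 of 15337 and 519 of 14392 genes tested. Between the WT ages, 0 of 41 were called by edgeR and by DESeq2, where edgeR called 0.0136% of all genes. Of the 41, 0 had an unadjusted p under 0.05 there, against 267 of 14706 genes tested (edgeR).

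Over the 12 libraries, which share groups, the log2 CPM of Xpa followed Ercc5 (Pearson r = 0.81), Ercc8 (0.75), Ercc3 (0.74) and Ercc4 (0.74), whereas r was -0.01 with Ercc6 and -0.02 with Ddb2. The 45 pairs of members had a median r of 0.28, from -0.45 to 0.81. Among 10779 genes with a mean of at least 5 CPM, those most alike to Xpa were Pbrm1 (r = 0.98), Srsf6 (0.96) and Vmac (0.95). Those most alike to Ercc3 were Gtf2a1 (0.94), which encodes a general transcription factor subunit, H2afy (0.93) and Prpsap1 (0.92). These values describe 12 libraries that differ in genotype, age and region, and were not tested.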

How the data were processed

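The authors deposited 1 table of raw read counts per gene symbol for each of the 12 libraries, made with the Lexogen QuantSeq kit. The submitters' processing notes name Bowtie2, bedtools and mm10, while versions, annotation, counting rule and use of strand are not given in the sources used here. From the deposited counts, edgeR 4.0.16 in R 4.3.3 was used (TMM scaling, low counts removed by filterByExpr at its default minimum of 10, quasi-likelihood test with robust estimates, Benjamini-Hochberg adjustment over all genes tested, threshold 0.05). Regions and genotypes were compared over all 12 libraries, HD ages in a fit of only the 8 HD libraries that held region as a covariate (13944 genes), and interactions with a mean for each group. Tables held 44 repeated symbols, none in the lists used. Replicate counts were further apart than sampling allows, with chi-square over its degrees of freedom at 7.23 to 78.2. No molecular identifiers were given, so that counting error is a lower bound.

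The 10 members, the lists and the tests were chosen with earlier results of these data known. Named were all members, other pathway genes with an adjusted p under 0.05 (at most 8 per comparison), and the 3 genes most alike to Xpa and Ercc3. Overlapping neighbours and Rn45s were named outside this rule, as were Drd1, Ppp1r1b, Penk, Drd2 and Gpr6 from the marker lists, after their values were seen. Alternatives were DESeq2 1.42.0, other scalings, filters, a threshold of 0.01, a replicate block and leaving out each library. The main edgeR and DESeq2 models were also run on counts simulated for independent libraries, with results not given here. The replicate block and the other scalings and filters were not run on simulated counts.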

Additional observations from a re-analysis of the deposited data

How the results depend on the processing

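With a threshold of 0.01, 1 member was called in striatum over cortex (Xpa), where 548 of 14706 genes were called higher. Of the 41 other pathway genes, 1 was called between 13-week HD and WT mice (Cetn2), 0 at 8 weeks and 0 between the HD ages, in place of 4, 2 and 2. Over all genes, 294, 56 and 161 were then called in these comparisons, in place of 1082, 309 and 900. With 1 library left out, 1 to 3 members were called between regions, and 0 to 7, 0 to 2 and 0 to 3 of the other pathway genes in those comparisons. At 8 weeks, upper-quartile scaling and leaving out Rn45s each called 1 of the 41 (Cetn2), no filter 1 (Rfc1) and library totals 0, while between the HD ages library totals called 8. DESeq2, upper-quartile scaling, library totals, leaving out Rn45s and requiring 1 CPM in each library each called 3 members between regions, Xpc being the added member. Genes called higher in striatum under these settings ranged from 1215 of 11622 tested (1 CPM in each library) to 1825 of 14706 (DESeq2). The main fit called 1251 of 14706 higher. The log2 difference of Xpa between regions stayed between 0.72 and 0.88 over 20 alternatives, with edgeR or DESeq2 adjusted p up to 0.00282. No called value changed sign under any alternative run. Why calls were lost with a library left out was not tested.

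Scaling by library totals moved the median of all genes between the HD ages from 0.00 to 0.21. Xpa was then at 1.30 and Ercc3 at 0.79, and the calls over all genes turned from 269 higher and 631 lower to 1224 and 410. The same scaling moved the median between 8-week HD and WT mice from -0.01 to -0.15, with 154 genes higher and 71 lower in place of 287 and 22. Between regions it gave 1661 higher and 1481 lower in place of 1251 and 1773, and between 13-week HD and WT mice 619 and 502 in place of 456 and 626. For all genes, DESeq2 called 1813 between 13-week HD and WT mice, 674 at 8 weeks and 1680 between the HD ages, against 1082, 309 and 900 by edgeR, and 60 and 17 in the interactions with genotype and age, against 0 and 0. Leaving out 1 library gave 29 to 1834 calls between 13-week HD and WT mice, and 0 between genotypes at 8 weeks without WT striatum.

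Replicate numbers are shared by striatum and cortex, but the labels do not say that they mark 1 mouse. They are also shared by both ages, where they cannot mark 1 mouse. In HD mice they go with sex, replicate 1 being male and replicate 2 female in every group. Deviations of equal numbers from their group means correlated by 0.20 (13 weeks) and 0.11 (8 weeks) between regions, and by 0.26 (striatum) and 0.04 (cortex) between ages. The block was each replicate of a genotype and age between regions, and the replicate number, and so also sex, in the fits of HD mice. With a replicate block, 2 members were called between regions, 2 other pathway genes between the HD ages and 0 members in the interaction of region and age, as without it. Over all genes the block gave 3064, 1030 and 0 calls. Uvssa and Pold2 were no longer called between regions under the block (adjusted p = 0.0579 and 0.0590, edgeR).

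With 1 WT library per group, no comparison with WT held a spread between WT mice of the same region and age. Members with fewer than 100 counts in a library (Ercc1, Ercc2, Ercc4, Ercc6, Ercc8 and Ddb2) had the wider errors.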
